A study of Mus musculus with 2 samples.

Results

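The genes described here make or sense the second messenger cAMP, break down cAMP or cGMP, limit protein kinase A, or shorten G protein signals. They are all genes whose symbols name an adenylyl cyclase (Adcy), a phosphodiesterase (Pde with a number and a letter), a catalytic or regulatory subunit of protein kinase A (Prkaca, Prkacb and the Prkar genes), a protein kinase inhibitor (Pkia, Pkib, Pkig) or a regulator of G protein signalling (Rgs with a number). There were 64 such genes among the 28693 listed: 10 Adcy, 24 Pde, 2 catalytic and 4 regulatory kinase subunit genes, 3 Pki and 21 Rgs genes. No measured value entered the choice. The cells came from the pituitaries of male C57BL/6 mice aged 7 weeks, of wild type and untreated, with no second condition. Glands were pooled in threes into 2 libraries of single cells, which were profiled by 3' counting of unique molecular identifiers (UMIs). The comparisons are therefore between cell classes of the same glands, and n = 2 throughout.

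Cyclic AMP is the main second messenger behind growth hormone-releasing hormone and corticotropin-releasing hormone, whose receptors act through the stimulatory G protein to activate adenylyl cyclase. Dopamine and somatostatin act in the opposite direction through inhibitory G proteins, and phosphodiesterases end the signal by hydrolysing the messenger. Protein kinase A is held inactive by its regulatory subunits until cAMP binds them, Pki proteins block its free catalytic subunits, and most RGS proteins speed up GTP hydrolysis by G protein alpha subunits of the inhibitory or the Gq type, which ends the signal from the receptor.

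Library 1 gave 6011 and library 2 gave 6523 cells after filtering, with a median of 10128 and 10636 UMIs per deposited barcode. Cells fell into 11 classes large enough to test, from 6271 somatotrope-like cells to 53 pituicyte-like cells, and 801 cells stayed unnamed. Of the markers of each class, 5 of 8 (somatotrope-like) to all (cycling, endothelial-like, fibroblast-like and macrophage-like) were highest in their own class, and no marker was at 0 there. Cells were clustered and named on these same markers, so these counts describe the classes and are no independent check of them. Some 48 barcode sequences occurred in both libraries among the cells used. Macrophage-like and endothelial-like cells carried RNA of hemoglobin and other red cell genes, at a summed 19604 and 1156 CPM in the macrophage-like cells of libraries 1 and 2 and 11498 and 6099 CPM in the endothelial-like ones, against at most 103 CPM in the other classes. Macrophage-like cells of library 1 also held 705 CPM of endothelial markers, against 10.1 CPM in library 2, and the part of these transcripts in the results below was not tested.

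Levels are in CPM, the UMIs of a gene per 1000000 UMIs of the same class and library outside 7 hormone genes (Gh, Prl, Pomc, Cga, Lhb, Fshb and Tshb), since Gh alone can take most of a cell's transcripts. They are given as the mean ± SD of the libraries, and 3' UMI counts need no division by gene length. Of the 64 genes, 47 passed the filter on low counts and were tested, 22 reached 50 CPM in at least 1 class, and 16 stayed under 10 CPM in every class. Only Rgs21 had no UMI in any cell. The members under 10 CPM were Adcy1, Adcy8, Adcy9, Adcy10, Pde4c, Pde6a, Pde6b, Pde6c, Pde6g, Pde6h, Pde11a, Rgs13, Rgs18, Rgs20, Rgs21 and Rgs22, and none of them passed the filter.

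The sequence that cAMP-responsive transcription factors of the CREB family bind is the palindrome TGACGTCA, and its shorter form is TGACG, or CGTCA on the other strand. RefSeq windows (GRCm38.p6) were matched for 48 of the 64 members, in 94 windows. In the 250 bases before the start, TGACGTCA occurred in 1 of the members' windows (1.06%) and in 1.55% of all 32851 windows. The member window is 1 of the 6 of Prkar1a. It lies inside the gene as annotated in GENCODE M21 (chr11:109649405-109669656), after its first base. The shorter form, which the palindrome contains, occurred in 20.2% of the members' windows and in 17.8% of all windows. Counted by gene, 17 of the 48 members (35.4%) and 19.8% of all genes had it in at least 1 window. The members had more windows per gene in which to hold it, 94 for 48 members against 32851 for 27025 genes. Shares by gene are thus not alike in kind, and the difference was not tested. Of the windows shown next, that of Prkar1a holds the full palindrome. Those of Rgs2 and Rgs4 hold the shorter form and belong to genes with large class differences, described with the other Rgs genes; both were chosen after their values were seen. They lie at chr11:109650699-109650948 on the plus strand (Prkar1a), and at chr1:144004150-144004399 (Rgs2) and chr1:169747643-169747892 (Rgs4) on the minus strand. They are written 5′ to 3′ on the gene's strand, with each TGACG or CGTCA in capitals. A match describes letters in a window and no binding was measured.
Prkar1a: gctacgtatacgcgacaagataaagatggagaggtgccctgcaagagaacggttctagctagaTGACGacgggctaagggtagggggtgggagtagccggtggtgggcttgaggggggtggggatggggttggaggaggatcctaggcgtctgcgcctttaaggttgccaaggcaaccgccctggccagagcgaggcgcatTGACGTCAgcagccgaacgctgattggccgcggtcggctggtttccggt
Rgs2: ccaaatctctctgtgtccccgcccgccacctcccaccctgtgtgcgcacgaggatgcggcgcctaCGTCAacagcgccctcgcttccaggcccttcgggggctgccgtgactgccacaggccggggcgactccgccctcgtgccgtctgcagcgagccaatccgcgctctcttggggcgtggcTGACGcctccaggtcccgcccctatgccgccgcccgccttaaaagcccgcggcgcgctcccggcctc
Rgs4: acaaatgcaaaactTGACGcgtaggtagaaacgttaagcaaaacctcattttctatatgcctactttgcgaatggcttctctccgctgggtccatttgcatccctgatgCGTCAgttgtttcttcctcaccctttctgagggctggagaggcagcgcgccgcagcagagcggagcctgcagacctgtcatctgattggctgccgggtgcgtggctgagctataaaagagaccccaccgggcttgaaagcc

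**Figure D1:**
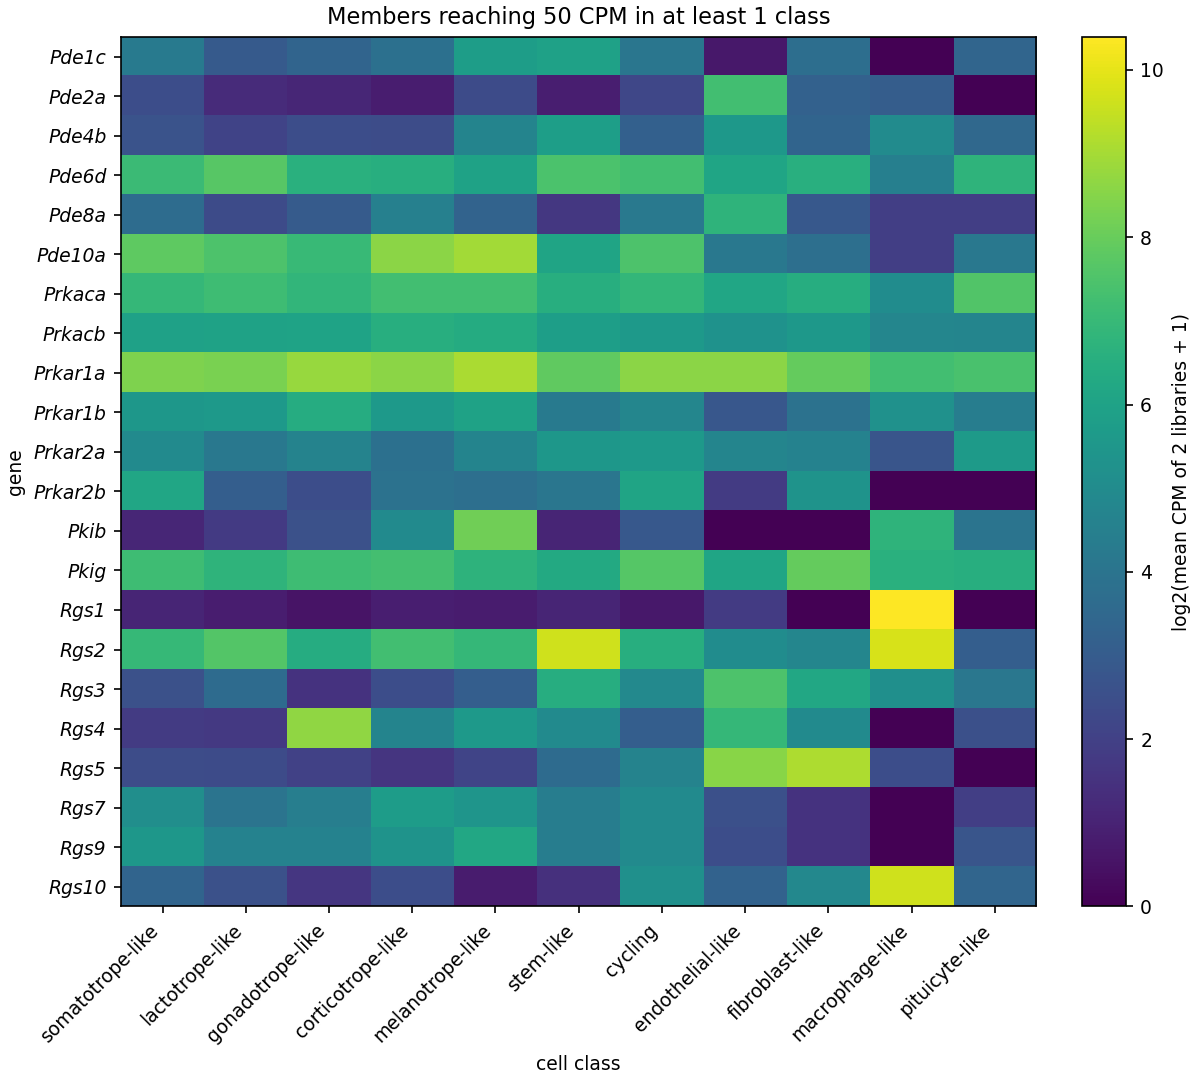
Levels of the 22 members that reached 50 CPM in at least 1 class (rows) in 11 cell classes (columns), as log2 of the mean CPM of 2 libraries plus 1. Prkar1a is high in every class, while Rgs1 and Rgs10 are high in macrophage-like cells, Rgs4 in gonadotrope-like cells, Pkib in melanotrope-like and macrophage-like cells and Pde2a in endothelial-like cells.

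Summed over all its genes, the Rgs family had the widest range between classes. It took 3121 ± 248 CPM in macrophage-like, 1056 ± 104 CPM in stem-like, 787 ± 102 CPM in endothelial-like and 774 ± 557 CPM in fibroblast-like cells. Of the hormone classes gonadotrope-like cells had most, 657 ± 4.74 CPM, and somatotrope-like cells least, 288 ± 29.4 CPM, and pituicyte-like cells had 115 ± 15.3 CPM. The Pde family ran the other way for macrophage-like cells, with 111 ± 12.9 CPM there against 824 ± 167 CPM in melanotrope-like and 668 ± 101 CPM in corticotrope-like cells. The Adcy genes were low everywhere, from a summed 48.5 ± 11.8 CPM in macrophage-like to 98 ± 0.014 CPM in somatotrope-like cells. Of the 48 members that reached 10 CPM, 35 (72.9%) had their highest level in the same class in both libraries, against 62.7% of the 12786 genes at that level outside the hormone and clustering genes. For 17 members (35.4%) the values of the highest class overlapped those of the next, and for 11 (22.9%) the highest class was more than 2-fold above the next. Over all genes these shares were 41.8% and 24.1%; the differences were not tested.

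Each hormone class was tested against the equally weighted mean log2 level of the other 4, with edgeR's quasi-likelihood test and Benjamini-Hochberg adjustment over 12117 genes at 0.05. In somatotrope-like cells 17 of the 47 tested members were higher and 16 lower, 70.2% in all; of all genes 27.4% were higher and 19.9% lower, 47.3% in all. Lactotrope-like cells had 7 higher and 19 lower (55.3%), against 17.1% and 25.6% of all genes (42.7% in all). With trimmed mean of M-values (TMM) scaling the split was 10 higher and 13 lower. Gonadotrope-like cells had 5 higher and 18 lower (48.9%), against 20.1% and 16.9% of all genes (37% in all). Lower calls thus outnumbered higher ones among the members in gonadotrope-like cells, while over all genes higher calls were more frequent.

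In the Pomc-producing classes higher calls outnumbered lower ones. Corticotrope-like cells had 15 members higher and 3 lower (38.3%), against 18.2% and 12.5% of all genes (30.8% in all). Melanotrope-like cells had 13 higher and 2 lower (31.9%), against 12.7% and 6.59% of all genes (19.3% in all). Compared with each other, corticotrope-like cells had 5 members higher and 7 lower than melanotrope-like cells (25.5%), against 10% and 11.2% of all genes (21.2% in all), a share near the background. Somatotrope-like cells had 18 higher and 16 lower than lactotrope-like cells (72.3%), against 31.4% and 17.4% of all genes (48.8% in all).

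The other classes were tested against the mean log2 level of the 5 hormone classes. Stem-like cells had 17 members higher and 17 lower (72.3%), against 34.1% and 23.8% of all genes (57.9% in all). Endothelial-like cells had 14 higher and 21 lower (74.5%), against 28.9% and 31.7% of all genes (60.6% in all). Cycling cells had 15 higher and 5 lower (42.6%), against 26.3% and 12.4% of all genes (38.6% in all), a share near the background. Their split was 14 and 9 with DESeq2 or with TMM scaling, and 14 and 10 with TMM on totals that include the hormone genes.

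Fibroblast-like cells had 13 members higher and 12 lower (53.2%), against 19.3% and 18.3% of all genes (37.6% in all), and 15 and 7 with DESeq2. Macrophage-like cells had 11 higher and 20 lower (66.0%), against 12.2% and 38.5% of all genes (50.7% in all). With DESeq2 the split there was 11 and 10, and the median log2 fold change of all genes moved from -1.19 to -0.16; the members' median was -2.07 before that change. Pituicyte-like cells had 3 higher and 9 lower (25.5%), against 13% and 7.12% of all genes (20.1% in all). The pituicyte-like split was 1 and 11 with TMM scaling and 5 and 6 with DESeq2.

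Adenylyl cyclases make cAMP from ATP. No Adcy gene reached 50 CPM in any class, and the highest level was that of Adcy4 in endothelial-like cells. Adcy4, an isoform stimulated by G protein beta-gamma subunits, had 47.2 and 49.7 CPM in the endothelial-like libraries and 0.204 CPM as the mean over the hormone classes, a log2 fold change of 9.01 ± 0.56 (SE, adjusted p = 2.75e-28). Somatotrope-like cells held 2 Adcy4 UMIs, melanotrope-like cells 1 and the other hormone classes none, so the size of this fold is uncertain. The 2 endothelial-like values lay above those of all other classes. Macrophage-like cells of library 1, which carried endothelial markers, had 17.1 CPM, and those of library 2 had none.

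Adcy2, another isoform that beta-gamma subunits stimulate, split the hormone classes. It had 16.4 and 20.2 CPM in somatotrope-like and 18.4 and 15 CPM in corticotrope-like cells, whose values overlapped. Lactotrope-like cells had 0.138 and 0.322 CPM and melanotrope-like cells had no UMI. The log2 difference between somatotrope-like and lactotrope-like cells was 6.03 ± 0.35 (adjusted p = 7.2e-30). Adcy5 and Adcy6, the isoforms that calcium inhibits, were spread over all hormone classes, at 17.3 to 31.4 CPM for Adcy5 and 21.1 to 36.8 CPM for Adcy6. Adcy5 had no UMI in endothelial-like or macrophage-like cells. Adcy6 was higher in somatotrope-like cells (log2 0.53 ± 0.12, adjusted p = 0.000119) and in lactotrope-like cells (0.34 ± 0.13, adjusted p = 0.0297) than in the mean of the other hormone classes. In fibroblast-like cells 3 of the 6 tested cyclases were called higher than in the hormone classes, Adcy3, Adcy4 and Adcy7, where 19.3% of all genes were. Adcy4 had a single UMI in each fibroblast-like library, under the limit of 3 UMIs used here, and its 33 and 42 UMIs in endothelial-like cells were most of those it had. Adcy7 had 26.0 and 17.5 CPM against 2.19 CPM.

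Phosphodiesterases hydrolyse cAMP, cGMP or both. Pde10a, which cleaves both, had the highest level of the Pde genes and was present in all hormone classes. It had 425 and 572 CPM in melanotrope-like, 323 and 445 CPM in corticotrope-like, 199 and 246 CPM in somatotrope-like, 155 and 198 CPM in lactotrope-like and 145 and 109 CPM in gonadotrope-like cells. Library 2 was higher in 4 of these 5 classes, and melanotrope-like and corticotrope-like values overlapped. Against the mean of the other hormone classes Pde10a was higher in melanotrope-like (log2 1.26 ± 0.18, adjusted p = 0.000387) and corticotrope-like cells (0.78 ± 0.17, adjusted p = 0.00396) and lower in gonadotrope-like cells (-1.21 ± 0.19, adjusted p = 0.000308). It was lower outside the hormone classes. Stem-like cells had 63.8 and 68.1 CPM (log2 -1.91 ± 0.22 against the hormone classes, adjusted p = 1.11e-05) and endothelial-like cells 27.2 and 7.10 CPM (-3.94 ± 0.38, adjusted p = 2.39e-06). Library 1 alone gave -3.03 and library 2 alone -5.12 for endothelial-like cells. Macrophage-like cells held a single Pde10a UMI. Cycling cells, at 180 and 175 CPM, lay within the range of the hormone classes.

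Pde6d encodes a subunit that carries prenylated proteins between membranes and does not cleave cyclic nucleotides itself. It was present in every class, from 21.4 ± 1.87 CPM in macrophage-like cells upward. Lactotrope-like cells had 217 and 197 CPM, above the other hormone classes (96.4 CPM on average, log2 1.15 ± 0.08, adjusted p = 1.06e-23). Stem-like cells, at 199 and 152 CPM, overlapped lactotrope-like cells. Melanotrope-like cells had 65.1 and 60.4 CPM, the lowest of the hormone classes (log2 -1.0 ± 0.16, adjusted p = 3.93e-07).

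Endothelial-like cells were set apart by Pde2a and Pde8a. Pde2a, whose cAMP hydrolysis cGMP stimulates, had 162 and 142 CPM there against at most 11.4 CPM in any library of the other classes (log2 6.24 ± 0.23 against the hormone classes, adjusted p = 9.24e-45). Pde8a, a cAMP-specific enzyme of high affinity, had 114 and 101 CPM against 10.8 CPM in the hormone classes (3.52 ± 0.20, adjusted p = 2.36e-31). Neither range overlapped another class. After each cell was thinned to 1000 UMIs, 18.9% and 16.1% of endothelial-like cells held a Pde2a UMI.

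Pde1c and Pde4b were both higher in stem-like and in melanotrope-like cells. Pde1c, a calmodulin-dependent enzyme, had 57.1 and 63.5 CPM in stem-like and 40.2 and 69.4 CPM in melanotrope-like cells, which overlapped, and 6.80 to 17.9 CPM in the other hormone classes. Pde4b, a cAMP-specific enzyme, had 56.6 and 53.8 CPM in stem-like cells, 41.5 and 48.5 CPM in endothelial-like cells and 28.7 and 21.1 CPM in melanotrope-like cells. Log2 fold changes for stem-like cells against the hormone classes were 1.98 ± 0.16 for Pde1c (adjusted p = 3.74e-21) and 3.18 ± 0.19 for Pde4b (adjusted p = 1.59e-30). Corticotrope-like cells had only 13.1 CPM of Pde1c and 4.34 CPM of Pde4b, below melanotrope-like cells by 2.09 ± 0.33 (adjusted p = 1.34e-07) and 2.52 ± 0.51 (adjusted p = 5.35e-05) on the log2 scale.

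In corticotrope-like cells 9 of the 17 tested Pde genes were higher than the mean log2 level of the other hormone classes: Pde1a, Pde1b, Pde4a, Pde4d, Pde7a, Pde7b, Pde8a, Pde8b and Pde10a. Of all genes 18.2% were higher there and 12.5% lower. Apart from Pde1a, Pde1b and Pde10a, these encode cAMP-specific enzymes. The mean levels of Pde1a, Pde1b and Pde10a were higher still in melanotrope-like cells, and that of Pde8b in somatotrope-like cells. Pde6d and Pde9a were lower in corticotrope-like cells, the second with no UMI. Melanotrope-like cells had 7 higher, Pde1a, Pde1b, Pde1c, Pde4b, Pde5a, Pde9a and Pde10a, and Pde6d lower, against 12.7% and 6.59% of all genes. The lists of higher genes thus shared Pde1a, Pde1b and Pde10a. Pde1a, a calmodulin-dependent enzyme, had 42.1 and 46.8 CPM in melanotrope-like and 24.9 and 33.1 CPM in corticotrope-like cells, which did not overlap, and 3.27 to 13.7 CPM in the other hormone classes. In gonadotrope-like cells none of the 17 was higher and 7 were lower, against 20.1% and 16.9% of all genes, with Pde10a the most abundant of them.

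Other Pde genes below 50 CPM had patterns of their own. Pde3b, a cAMP enzyme that cGMP inhibits, was highest in cycling cells, at 45.3 and 40.4 CPM (log2 2.24 ± 0.26 against the hormone classes, adjusted p = 2.37e-12). Of the hormone classes it was higher in somatotrope-like (29.3 and 26.8 CPM) and lactotrope-like cells (20.8 and 16.8 CPM), where its log2 differences from the others were 2.04 ± 0.18 and 1.31 ± 0.21 (adjusted p = 2.87e-18 and 8.1e-08). The related Pde3a was found mainly in fibroblast-like cells, at 18.5 and 20.4 CPM against 0.705 CPM in the hormone classes (5.11 ± 0.83, adjusted p = 1.37e-07). Pde1b, like Pde1c, was highest in stem-like cells, at 34.4 and 35.5 CPM (2.63 ± 0.23, adjusted p = 2.78e-19), and had no UMI in endothelial-like, fibroblast-like, macrophage-like or pituicyte-like cells.

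Enzymes at lower levels told somatotrope-like from lactotrope-like cells. Pde8b, a cAMP-specific enzyme, had 15.1 and 18.0 CPM in somatotrope-like and 0.826 and 1.07 CPM in lactotrope-like cells (log2 4.05 ± 0.28, adjusted p = 2.88e-25). Pde9a, which is specific for cGMP, had 12.7 against 1.66 CPM (2.94 ± 0.26, adjusted p = 1.77e-18). Pde5a, also specific for cGMP, went the other way, at 0.446 against 4.07 CPM (-3.08 ± 0.42, adjusted p = 6.45e-10).

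**Figure D2:**
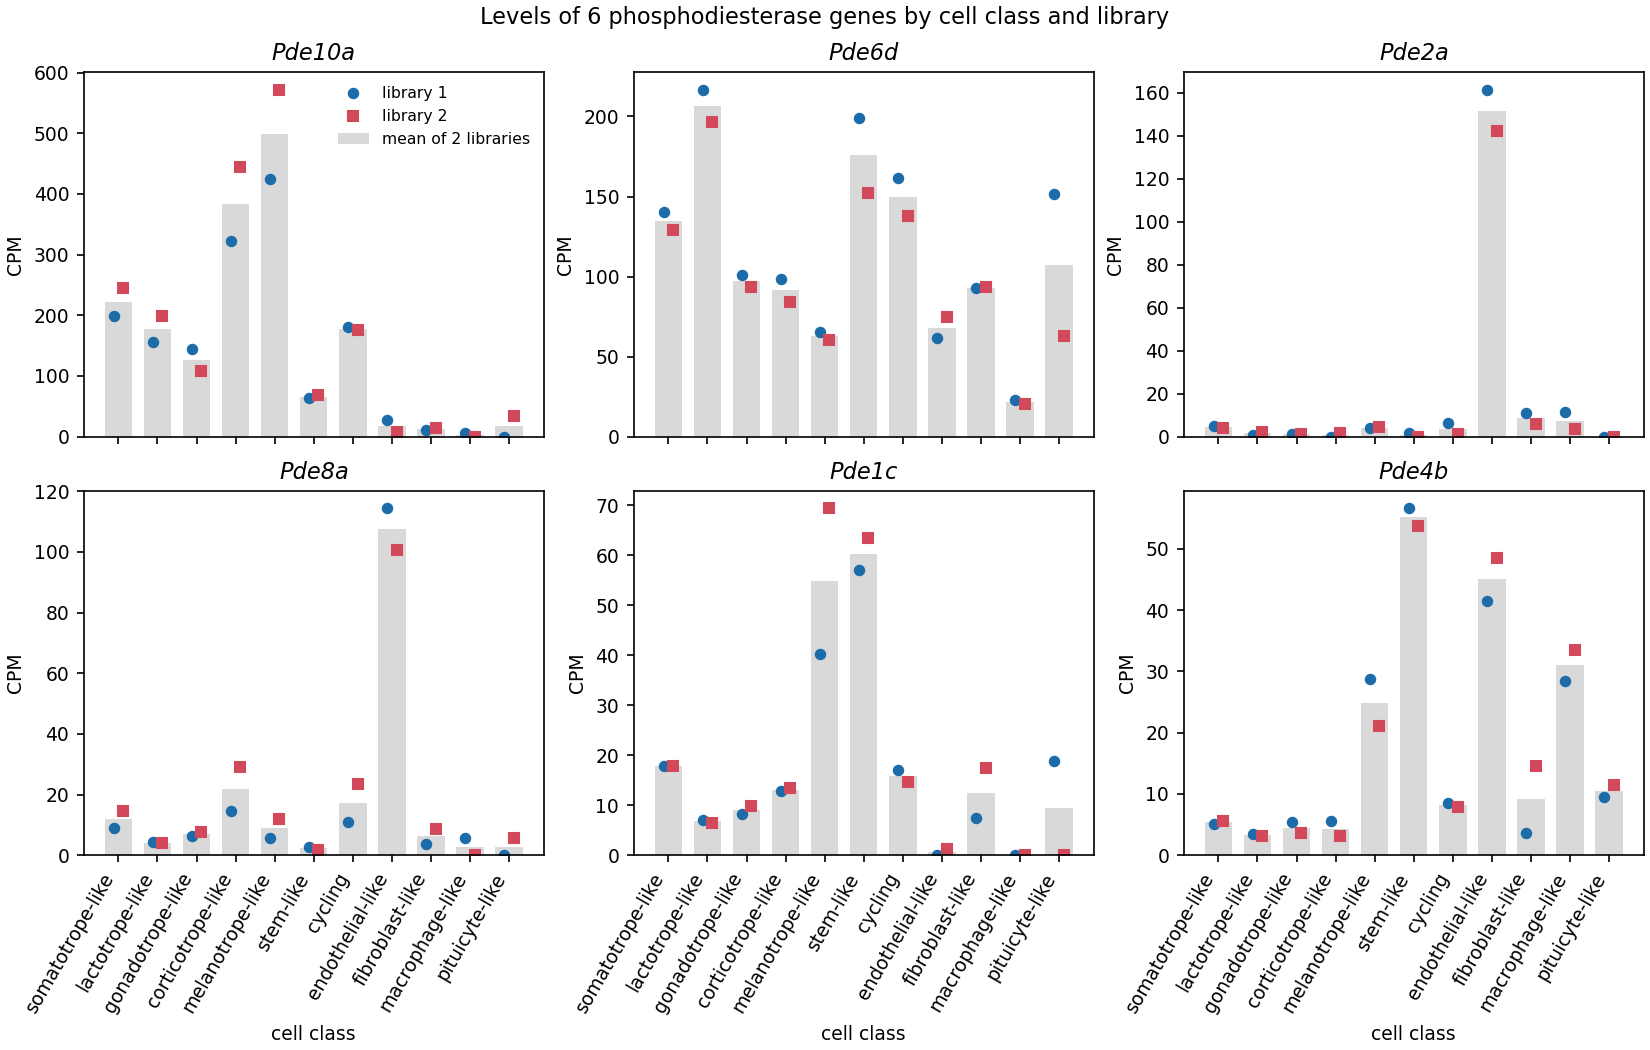
CPM of 6 Pde genes by cell class; points are the 2 libraries and bars their mean. Pde10a spans the hormone classes and is highest in melanotrope-like cells (498 CPM), Pde2a (152 CPM) and Pde8a (107 CPM) stand out in endothelial-like cells, and Pde1c and Pde4b in stem-like cells.

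Within the hormone classes the catalytic subunit genes of protein kinase A were more even than Adcy2, Adcy5 and Adcy6. Prkaca had 115 to 151 CPM and Prkacb 60.4 to 91.6 CPM over the hormone classes. Prkacb was highest in corticotrope-like cells, at 95.9 and 87.4 CPM, and was above the other hormone classes there (log2 0.45 ± 0.13, adjusted p = 0.00422). Both were lower in endothelial-like, fibroblast-like, stem-like and macrophage-like cells than in the hormone classes. In macrophage-like cells the call for Prkacb, -1.62 ± 0.36, was -0.73 in library 1 alone and -2.26 in library 2 alone, and was lost with DESeq2 (adjusted p = 0.158). The differences for Prkaca ran from -0.58 ± 0.10 in stem-like (adjusted p = 7.09e-07) to -2.08 ± 0.28 in macrophage-like cells (adjusted p = 6.66e-10). The median log2 fold change of all genes was 0.108 in the stem-like and -1.19 in the macrophage-like comparison. The genes parted in pituicyte-like cells. Prkaca had its highest mean level there, 189 CPM, overlapping melanotrope-like cells (151 CPM), and was not called. Prkacb was called lower there, at 25.6 CPM (log2 -1.51 ± 0.46, adjusted p = 0.00896).

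Among the regulatory subunits Prkar1a dominated, with 69.8% to 91.8% of the summed level of the 4 genes in every class. It was highest in melanotrope-like cells, at 568 and 521 CPM, with no overlap with another class, and above the other hormone classes by 0.58 ± 0.09 on the log2 scale (adjusted p = 2.41e-06). Prkar1b was highest in gonadotrope-like cells, at 86.3 and 83.0 CPM (log2 0.76 ± 0.12, adjusted p = 3.4e-08). Prkar2a was at 5.69 to 50.4 CPM, and of the hormone classes only somatotrope-like cells were higher than the mean of the others (0.68 ± 0.13, adjusted p = 6.08e-06).

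Of the kinase subunit genes, Prkar2b had the largest difference between somatotrope-like and lactotrope-like cells. It had 73.1 and 68.2 CPM in somatotrope-like and 8.40 and 6.87 CPM in lactotrope-like cells, a log2 difference of 3.21 ± 0.14 (adjusted p = 4.63e-39). Cycling cells had 59.9 and 74.0 CPM and overlapped somatotrope-like cells, whose markers they also carried: 7 of these summed to 797 and 734 CPM in cycling and 1172 and 1106 CPM in somatotrope-like cells. Gonadotrope-like, corticotrope-like and melanotrope-like cells had 4.49 to 14.3 CPM. Macrophage-like and pituicyte-like cells had no Prkar2b UMI, where the limit taken, 3 UMIs over both libraries, is 6.32 and 10.7 CPM. Their levels are thus at least 3.48-fold and 2.06-fold below the plain mean of the hormone classes, 22.0 CPM. Somatotrope-like cells raise that mean, and gonadotrope-like cells lay under both limits. Prkar2b made up 14.7% ± 1.30 of regulatory subunit transcripts in somatotrope-like and 1.99% ± 0.268 in lactotrope-like cells. Between the 10 clusters that make up the somatotrope-like class it ranged from 62.6 to 81.1 CPM.

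Of the kinase inhibitors, Pkig was present in every class and Pkib in few. Pkib had 285 and 270 CPM in melanotrope-like cells, 102 and 114 CPM in macrophage-like cells and 25.8 and 35.4 CPM in corticotrope-like cells. These 3 classes did not overlap each other. Somatotrope-like cells had 1.24 and 1.10 CPM, and lactotrope-like and gonadotrope-like cells 2.38 and 4.92 CPM on average. Melanotrope-like cells were above the mean of the other hormone classes by 5.90 ± 0.17 on the log2 scale (adjusted p = 3.2e-55) and above corticotrope-like cells by 3.16 ± 0.20 (adjusted p = 9.32e-27). Corticotrope-like cells in turn were above the mean log2 level of the other hormone classes, by 1.95 ± 0.25 (adjusted p = 7.51e-11), although the plain mean of those classes, 71.5 CPM, was larger because it includes melanotrope-like cells. Endothelial-like and fibroblast-like cells had no Pkib UMI, where the limit of 3 UMIs is 1.94 and 4.90 CPM. Their levels are thus at least 32.6-fold and 12.9-fold below the plain mean of the hormone classes, 63.3 CPM. Melanotrope-like cells carry most of that mean. Somatotrope-like cells lay under both limits and lactotrope-like cells under the fibroblast-like one, so no such bound holds against them.

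After thinning to 1000 UMIs, 29.8% and 16.4% of melanotrope-like cells held a Pkib UMI, against 0.098% and 0.096% of somatotrope-like cells; without thinning the shares were 71.1% and 65.1% against 0.604% and 0.512%. Median depths outside hormone genes were 4089 and 4280 UMIs in melanotrope-like and 4908 and 5182 in somatotrope-like cells. Pkib thus made up 69.1% ± 1.94 of Pki transcripts in melanotrope-like and 52.6% ± 2.69 in macrophage-like cells, where Pkig led in all other classes. Pkig was highest in fibroblast-like cells, at 274 and 216 CPM (log2 0.91 ± 0.14 against the hormone classes, adjusted p = 1.92e-08), and next in cycling cells, at 192 and 207 CPM. Pkia reached 33.3 and 31.5 CPM in stem-like cells, above the hormone classes by 1.23 ± 0.19 (adjusted p = 1.45e-08).

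**Figure D3:**
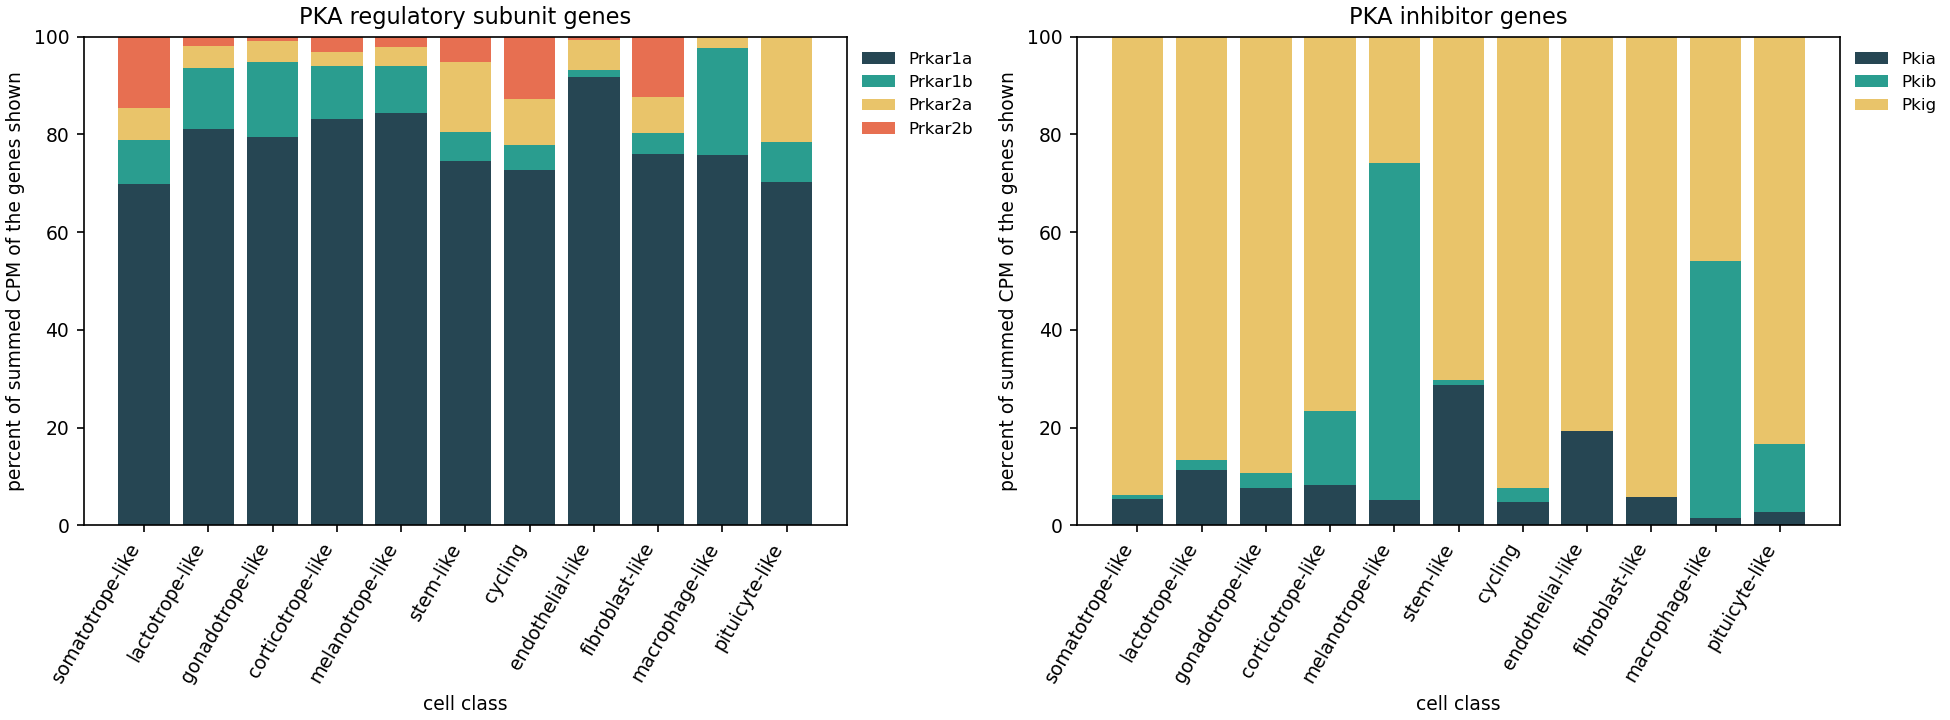
Share of each gene in the summed CPM of the 4 regulatory subunit genes (left) and of the 3 Pki genes (right) by cell class, as the mean of 2 libraries in percent. Prkar1a takes at least 69.8% in every class and Prkar2b is 14.7% in somatotrope-like cells; Pkib takes 69.1% in melanotrope-like and 52.6% in macrophage-like cells.

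Rgs1 and Rgs10 were the members with the sharpest class difference. Rgs1, known from leukocytes, where it limits signals of chemokine receptors, had 1183 and 1511 CPM in macrophage-like cells and at most 3.55 CPM in any library of another class (log2 10.69 ± 0.17 against the hormone classes, adjusted p = 7.53e-80). Rgs10, known from microglia and other macrophages, had 802 and 801 CPM there and 4.31 CPM on average in the hormone classes (7.91 ± 0.18, adjusted p = 1.79e-65). The macrophage-like libraries did not overlap those of any other class for either gene, with red cell transcripts at 19604 CPM in library 1 and 1156 CPM in library 2. The genes were spread differently over the cells. Rgs10 had a UMI in 101 of 113 macrophage-like cells and at most 17 in 1 cell. Rgs1 had a UMI in 63 and at least 5 in 43 cells, up to 59, and these 43 cells held 93.9% of its UMIs.

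Rgs2, which acts mainly on Gq and is induced by many stimuli, was high in a pair of classes. Macrophage-like cells had 881 and 878 CPM and stem-like cells 864 and 752 CPM, neighbouring levels whose difference was not tested. Lactotrope-like cells followed with 180 and 211 CPM and were above the other hormone classes (log2 0.72 ± 0.16, adjusted p = 0.00328). Stem-like cells were above the hormone classes by 2.63 ± 0.14 (adjusted p = 9.6e-09) and macrophage-like cells by 2.74 ± 0.21 (adjusted p = 5.35e-07). In stem-like cells 295 of 328 cells had a UMI, with a median of 5 UMIs and a maximum of 67. Endothelial-like cells were lower than the hormone classes (25.7 and 39.1 CPM, log2 -1.99 ± 0.35, adjusted p = 0.000385), and pituicyte-like cells had 2 UMIs in all. Fibroblast-like cells had 14.8 and 38.0 CPM, called lower at -2.24 ± 0.53 (adjusted p = 0.00568), while library 1 alone gave -2.95. With cells clustered on variable genes the difference was -0.72 ± 0.34 (adjusted p = 0.126).

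Rgs4, which acts on Gi and Gq, marked gonadotrope-like cells. It had 395 and 427 CPM there, 82.9 and 156 CPM in endothelial-like cells, and 2.52 and 2.30 CPM on average in somatotrope-like and lactotrope-like cells. No other class overlapped the gonadotrope-like libraries, which were above the other hormone classes by 5.49 ± 0.14 on the log2 scale (adjusted p = 5.1e-13). Thinned to 1000 UMIs, 31.2% and 35.4% of gonadotrope-like and 0.36% and 0.225% of somatotrope-like cells held a UMI. Macrophage-like cells had none, where the limit of 3 UMIs is 6.32 CPM. Their level is thus at least 15.5-fold below the plain mean of the hormone classes, 97.7 CPM, which gonadotrope-like cells raise. Somatotrope-like and lactotrope-like cells lay under that limit, so no such bound holds against them. Melanotrope-like cells, at 55.5 and 40.8 CPM, were also above the mean log2 level of the other hormone classes (1.59 ± 0.42, adjusted p = 0.0157), a call that was lost at an adjusted p of 0.0529 when cells with high doublet scores were kept.

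Rgs3 and Rgs5 belonged to classes outside the hormone cells. Rgs3, a regulator of Gi and Gq signals, had 183 and 176 CPM in endothelial-like, 84.3 and 91.0 CPM in stem-like and 85.3 and 61.4 CPM in fibroblast-like cells, with the last 2 overlapping. The hormone classes averaged 6.08 CPM. Log2 differences from them were 5.09 ± 0.17 in endothelial-like (adjusted p = 9.67e-50), 4.06 ± 0.17 in stem-like (adjusted p = 1.84e-42) and 3.78 ± 0.34 in fibroblast-like cells (adjusted p = 5.5e-18).

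**Figure D4:**
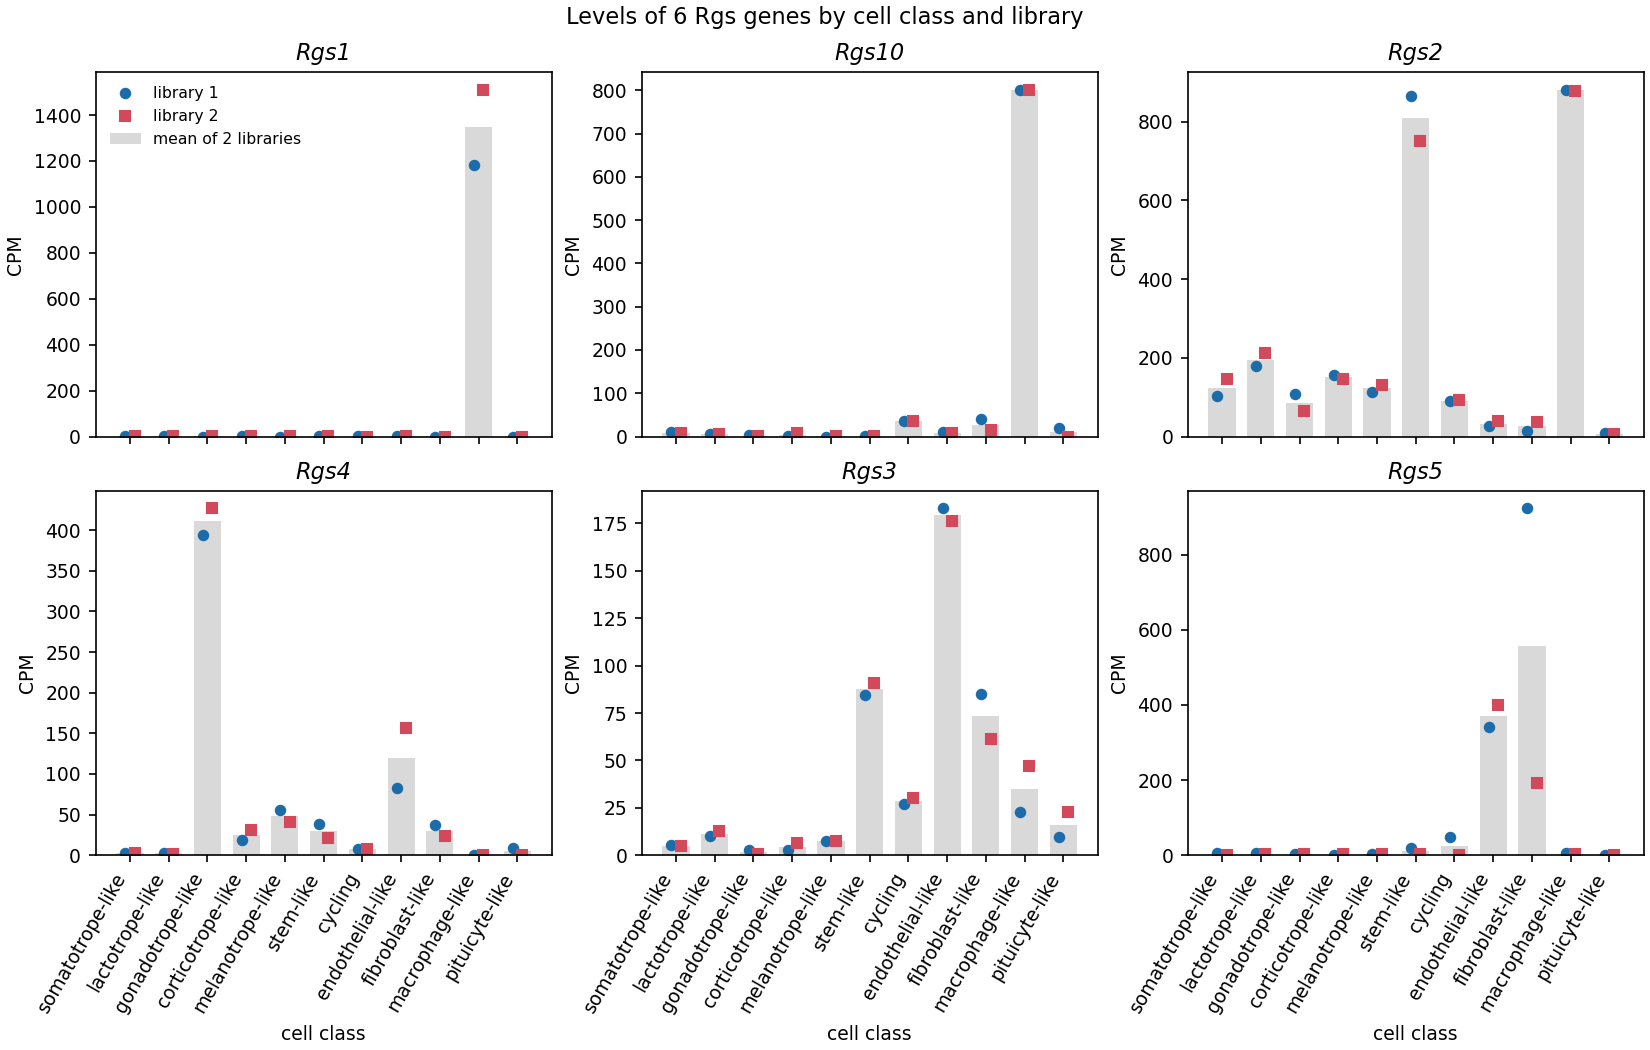
CPM of 6 Rgs genes by cell class; points are the 2 libraries and bars their mean. Rgs1 and Rgs10 are high in macrophage-like cells, Rgs2 in macrophage-like and stem-like cells and Rgs4 in gonadotrope-like cells, while the 2 fibroblast-like libraries are far apart for Rgs5 (923 and 193 CPM).

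Rgs5, a gene known as a marker of pericytes, had 923 and 193 CPM in fibroblast-like and 342 and 401 CPM in endothelial-like cells, whose ranges overlapped, against 3.39 CPM in the hormone classes. The calls were 7.26 ± 0.64 (adjusted p = 6.65e-06) and 6.93 ± 0.53 (adjusted p = 1.01e-06) on the log2 scale, and for fibroblast-like cells library 1 alone gave 7.92 and library 2 alone 6.02. Few cells carried these levels. In the fibroblast-like class 7 of 149 cells had at least 5 Rgs5 UMIs and held 99.4% of them, and without these cells the level was 3.95 and 3.01 CPM. In the endothelial-like class 27 of 276 cells held 94.8%, and without them the level was 25.5 and 20.6 CPM.

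The cells rich in Rgs5 differed from their classmates in other genes, a comparison made after the values were seen. Of the 7 fibroblast-like cells, 6 had a UMI of the pericyte receptor gene Pdgfrb, 5 of the smooth muscle actin gene Acta2 and 1 of the fibroblast receptor gene Pdgfra. Among the other 142 fibroblast-like cells, 101, 1 and 87 had one. The fibroblast gene Dcn had a UMI in 6 of the 7 cells and in all of the other 142. Library 1 gave 5 of the 7 cells and library 2 gave 2. Of the 27 endothelial-like cells, 27 had the endothelial gene Plvap, 26 Cdh5, 8 Pdgfrb, 10 the fibroblast gene Dcn and 6 Acta2, against 248, 211, 4, 21 and 0 of the other 249. Their median depth was 7829 UMIs against 4376 UMIs. The part of deeper barcodes or of doublets in these levels was not tested.

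**Figure D5:**
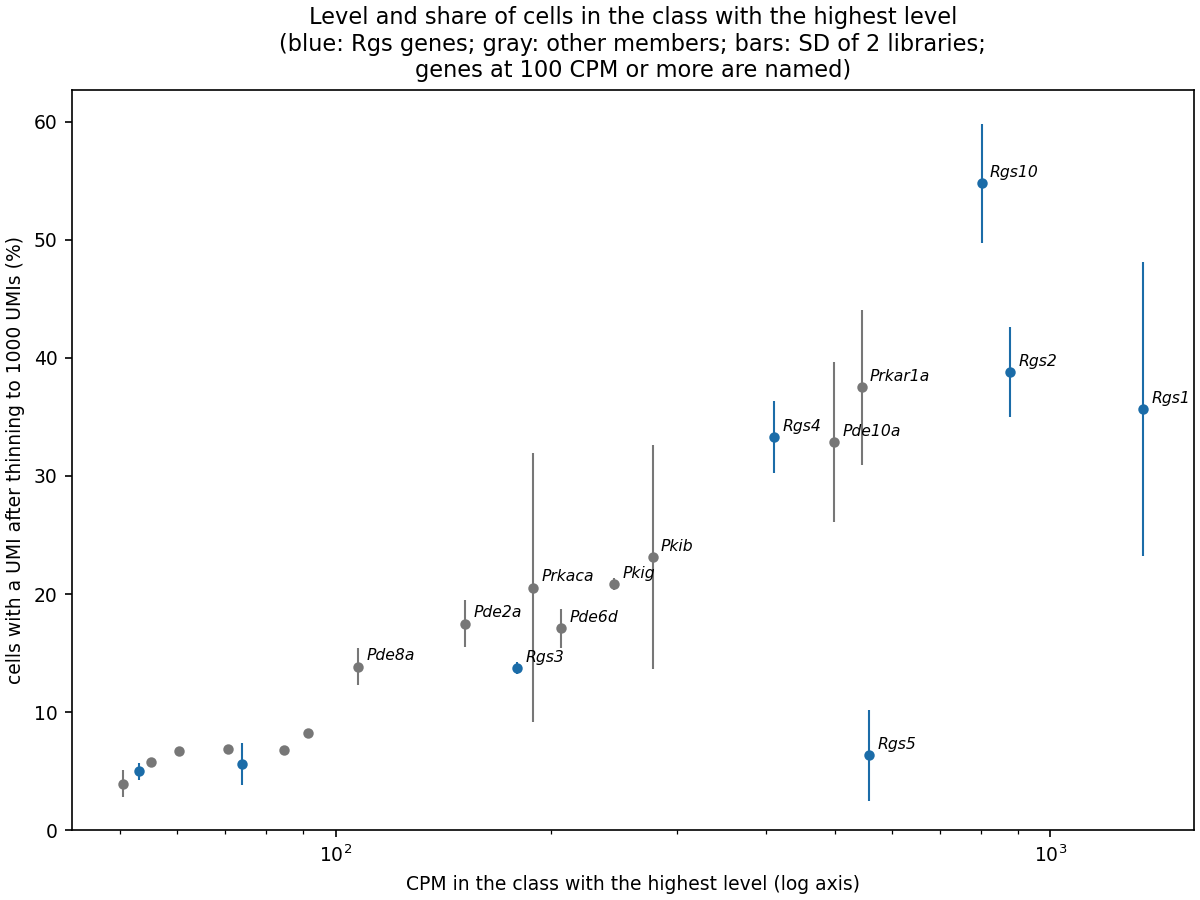
Share of cells with a UMI after thinning to 1000 UMIs (vertical, percent, mean and SD of 2 libraries) against the CPM (horizontal, log axis) for each of 22 members in the class where it is highest; Rgs genes are blue and genes at 100 CPM or more are named. Rgs5 lies far below the other genes of its level, at 6.35% of fibroblast-like cells, and Rgs10 above them, at 54.8% of macrophage-like cells.

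Lower Rgs genes divided the hormone classes. Rgs7 and Rgs9, relatives that pair with the beta subunit Gnb5, were highest in corticotrope-like (54.4 and 52.0 CPM for Rgs7) and melanotrope-like cells (72.7 and 75.5 CPM for Rgs9). Rgs9 was above the other hormone classes in melanotrope-like cells by 1.25 ± 0.19 (adjusted p = 8.93e-08), and Rgs7 in corticotrope-like cells by 1.03 ± 0.17 (adjusted p = 4.98e-07). Neither had a UMI in macrophage-like cells, at least 5.22-fold and 6.46-fold below the plain mean of the hormone classes. Rgs11, of the same group, and Rgs17 and Rgs19, of another, were all highest among hormone classes in gonadotrope-like cells, at 37.9, 40.4 and 17.1 CPM. Their log2 differences there were 2.29 ± 0.20, 1.39 ± 0.17 and 2.05 ± 0.30 (adjusted p = 3.37e-18, 4.09e-11 and 7.43e-09). Rgs16 was low in the same cells, at 3.02 CPM against 49.2 CPM in corticotrope-like cells. Rgs8 was highest in lactotrope-like cells, at 15.3 and 15.7 CPM (2.42 ± 0.26, adjusted p = 4.53e-14). Rgs6 was highest in stem-like cells, at 18.9 and 14.9 CPM.

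Of the 21 Rgs genes, 11 lie on chromosome 1 (GENCODE M21 on GRCm38, the assembly the authors used under the name mm10). The levels of 3 pairs of near neighbours were alike in some classes and unlike in others. Rgs5 (chr1:169655501-169695813, plus strand) and Rgs4 (chr1:169741477-169747642, minus strand) are 45.7 kb apart. By mean level endothelial-like cells ranked second for both genes, at 371 and 120 CPM, though the highest class of Rgs5 differed between the libraries. Few endothelial-like cells carried much of this. Cells with at least 5 UMIs, 27 for Rgs5 and 9 for Rgs4 of 276, held 94.8% and 48.9% of the UMIs. In gonadotrope-like cells Rgs4 had 411 CPM and Rgs5 3.04 CPM. Rgs2 (chr1:143999338-144004161) and Rgs1 (chr1:144242296-144249242) lie on the same strand, with Rgs13 between them. Both were highest in macrophage-like cells, at 880 and 1347 CPM, while in stem-like cells Rgs2 had 808 CPM and Rgs1 1.12 CPM. Rgs8 (chr1:153653025-153700323) and Rgs16 (chr1:153740349-153745468), both on the plus strand, had 15.5 and 15.4 CPM in lactotrope-like cells, the highest class of Rgs8, while Rgs16 was highest in corticotrope-like cells, at 49.2 CPM, where Rgs8 had 1.71 CPM. Pkib lies at chr10:57631981-57741112, Pde10a at chr17:8525372-8986648, Prkar2b at chr12:31958476-32061296 and Rgs10 at chr7:128373621-128418758.

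Differences between clusters within the largest classes were looked at for the members with at least 30 CPM in the class as a whole, 12 in somatotrope-like and 8 in lactotrope-like cells. Over the 10 somatotrope-like clusters their levels differed by at most 1.55-fold, for Rgs2 at 93.8 to 145 CPM, and by as little as 1.11-fold for Prkar1a. Over the 6 lactotrope-like clusters the widest range of the 8 was that of Pde10a, from 143 to 205 CPM. Thyrotrope-like cells were too few to test, at 5 and 21 cells. In them Pde10a led with 56 UMIs or 566 CPM (exact Poisson interval 428 to 735, counting error only), followed by Prkar1a with 313 CPM (213 to 445) and Rgs2 with 182 CPM (108 to 288).

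Other genes of the pathway were taken from lists of G protein subunits, kinase anchoring proteins, cAMP-regulated transcription and the cGMP branch. Of 25 tested G protein subunit genes, 14 were higher and 7 lower in endothelial-like cells than in the hormone classes, against 28.9% and 31.7% of all genes. Gng11, a gamma subunit gene, had 1926 CPM there against 64.6 CPM (log2 5.31 ± 0.11, adjusted p = 2.1e-19), and Gngt2, another, 353 CPM against 0.755 CPM (9.54 ± 0.21, adjusted p = 2.05e-47). Gngt2 was also high in macrophage-like cells, at 403 CPM. In somatotrope-like cells 6 were higher and 12 lower than in the other hormone classes, against 27.4% and 19.9% of all genes. Gnas, which encodes the stimulatory alpha subunit, was among the lower ones at 5581 CPM against 9188 CPM (-0.70 ± 0.05, adjusted p = 1.57e-24), and the beta subunit gene Gnb3 among the higher ones at 298 CPM against 130 CPM (1.47 ± 0.08, adjusted p = 1.04e-32). Gnai1, an inhibitory alpha subunit gene, had 50.6 CPM in lactotrope-like and 1.97 CPM in somatotrope-like cells (-4.67 ± 0.18 for somatotrope-like against lactotrope-like cells, adjusted p = 9.71e-45). Gna14, an alpha subunit gene of the Gq group, reached 66.7 CPM in the stem-like class, where the hormone classes averaged 8.78 CPM (4.48 ± 0.20, adjusted p = 7.17e-40).

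The cGMP branch was tested with 10 genes. Of these, 4 were higher and none lower in endothelial-like cells, where 28.9% and 31.7% of all genes were, led by Npr1, the receptor for atrial natriuretic peptide, at 86.8 CPM against 0.614 CPM (7.86 ± 0.38, adjusted p = 9.27e-37). Pituicyte-like cells had 118 CPM of Npr1. Fibroblast-like cells had 99.1 CPM of Gucy1a3, a subunit of the nitric oxide receptor, against 4.8 CPM (5.92 ± 0.40, adjusted p = 9.96e-26). Corticotrope-like cells had 75.5 CPM of Cngb1, a cyclic nucleotide-gated channel subunit, against 7.17 CPM in the other hormone classes (4.16 ± 0.22, adjusted p = 8.5e-33). Of 10 tested anchoring protein genes, 4 were higher and none lower in corticotrope-like cells, against 18.2% and 12.5% of all genes. In fibroblast-like cells 4 were higher and 2 lower, against 19.3% and 18.3% of all genes, with Akap12 at 95.4 CPM against 2.89 CPM (6.22 ± 0.44, adjusted p = 4.37e-24). Of 14 tested genes of cAMP-regulated transcription and Epac, none was higher and 6 were lower in lactotrope-like cells, against 17.1% and 25.6% of all genes. In melanotrope-like cells 4 were higher and none lower, against 12.7% and 6.59% of all genes, among them Crem at 173 CPM against 121 CPM (0.55 ± 0.12, adjusted p = 0.000309). Somatotrope-like cells were close to that level, at 166 CPM of Crem, while lactotrope-like and corticotrope-like cells had 104 and 98.6 CPM.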

How the data were processed

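Pituitary cells of 2 pools of 3 glands were profiled with the 10x Genomics 3' chemistry; the authors deposited 1 matrix of raw UMI counts, made with Cell Ranger and STAR on mm10 per the submitters' processing notes, with versions not given in the sources used here. The number ending each barcode was taken as the pool; 0 barcodes had another ending. The labels' protocols give a multiplet rate of 7.6%. A deposited table of plot coordinates was not used. The other deposited columns hold barcodes and gene symbols. Libraries held 6546 and 7117 barcodes with 70813117 and 78861988 UMIs.

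Barcodes needed 500 UMIs, 250 genes and at most 20% mitochondrial UMIs; the 7.6% with the highest simulated-doublet scores were removed, 494 and 537. Cells were clustered on 94 marker genes, none of them a member (12 principal components, 15 neighbours, Leiden resolution 1, leidenalg 0.10.2), and named from markers. Clusters in which 20% to 90% of cells were rich in Gh stayed unnamed, which was decided with the data in view. With 2000 variable genes instead, 95.9% of 11226 cells named both ways kept their class.

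Counts were summed per class and library, for classes with at least 20 cells in each, giving 22 columns. They were tested with edgeR 4.0.16 (quasi-likelihood, robust, filterByExpr, totals outside hormone genes, library as a block because every class comes from the same pools), with 12117 genes tested, 81 marker genes left out and 10 residual degrees of freedom. Alternatives used DESeq2 1.42.0, TMM scaling, no filter, no block, doublets kept and other clusterings. Folds against several classes use mean log2 levels, except the bounds for classes without a UMI, which use the plain mean CPM of the hormone classes. P-values measure the spread between the 2 libraries of a class that remains after the library block. All classes share 1 estimate of it, and the spread between single mice was not measured. Members named in comparisons were called, moved alike in each library and reached 50 CPM in 1 of the sides compared (the 5 highest and 5 lowest); members at 50 CPM in some class were described too, and other pathway genes were the 3 highest and 3 lowest. Further members at lower levels were named after their values were seen. The members and lists were chosen with earlier results of these data known. For shares of cells with a UMI, 101 somatotrope-like cells and 1 cycling cell under 1000 UMIs were left out. The fitting code was checked on simulated counts. UMI intervals are at 95%, and intervals and limits cover counting error only. Overlapping and antisense genes could share reads: Pde2a overlaps Arap1 on the same strand, and 17 members overlap a listed gene on the opposite strand.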

Additional observations from a re-analysis of the deposited data

How the results depend on the processing

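The count of members called in each of the 13 comparisons stayed within 1.5 times its value under all 8 alternatives, from 29 to 33 for somatotrope-like cells, 33 to 37 for stem-like cells, 21 to 32 for macrophage-like cells and 9 to 13 for corticotrope-like against melanotrope-like cells. The replicate block changed little: without it 9 members were called between corticotrope-like and melanotrope-like cells in place of 12, and of the named members 1 lost its call, Pde6d in that comparison (adjusted p = 0.0522). The block is given by the design, since every class comes from the same pools. Of 93 named results none changed direction under the 8 alternatives. Pkig in somatotrope-like cells (0.18 on the log2 scale) lost its call under 5 alternatives, and Pkig in lactotrope-like cells under both kinds of TMM scaling (adjusted p = 0.0656 and 0.0574). Single calls were lost for Pde6d in corticotrope-like cells at resolution 2 (adjusted p = 0.0577), for Pkig in melanotrope-like cells (0.0781), Rgs2 in fibroblast-like cells and Pde6d between corticotrope-like and melanotrope-like cells with variable genes (adjusted p = 0.126 and 0.0587), for Prkacb in macrophage-like cells with DESeq2 (0.158), and for Prkar2a in pituicyte-like cells with TMM scaling (0.0577 and 0.0656). The cause was not tested. With 1 library left there is no test. Of 93 values, 11 moved beyond the SD of the 2 single-library values without replicate 1, and 20 without replicate 2. None could change direction, because named members were required to move alike in each library. Single-library values were also not computed by the fit, so a shift can come from the method. Pkib in fibroblast-like cells, without a UMI, had -2.94 and -2.38 against -7.95 in the fit. Small classes limit precision: 3 UMIs are 6.32 CPM over both macrophage-like libraries and 10.7 CPM in pituicyte-like cells.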
